A study of Mus musculus with 18 samples.

Results

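RNA-seq of YFP+ regulatory T cells (Tregs) sorted from the spleens of Chd8-/- and WT mice was examined gene by gene. The genes described were those with a level of at least 5 TPM (a transcript level scaled by gene length and library total) in both libraries of a genotype, which gave 10904 of 35865 genes listed under a single name. Of these, 8933 passed in both genotypes, 498 passed only through the Chd8-/- libraries and 1473 passed only through the WT libraries. There were 4 libraries, 2 from Chd8-/- and 2 from WT mice, out of 18 samples in the series, which also holds ATAC-seq and CHIP-seq samples. The Chd8-/- libraries carry the genotype label CHD8Flox/FloxFoxp3YFP-Cre. The WT libraries carry the genotype label CHD8flox/floxFoxp3YFP-Cre/+, and the grouping as WT rests on their titles (W1 and W2) and on the study. That label conflicts with the study, which describes its WT mice as Chd8+/+. In mice of the labelled genotype the study describes YFP+ Tregs as lacking CHD8, so the WT libraries would then also come from cells with deleted Chd8. The conflict could not be settled from the labels, and every WT value below is the value of a library titled W1 or W2. All 4 libraries carry the treatment label Poly IC injection. Cre is fused to YFP and expressed from the Foxp3 locus on the X chromosome, so the deletion is restricted to cells that express Foxp3, and the sort on YFP takes those cells. The methods give sex-matched young littermates. The study describes fatal inflammation with more effector T cells in its Chd8-/- mice, and the part of that inflammation in the values below was not tested. A library is taken to be a mouse, and nothing in the labels says more about how the libraries relate, so the p-values below measure only the spread between these libraries.

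CHD8 is a chromodomain helicase, an ATP-dependent enzyme that moves nucleosomes, and it is known as a repressor of p53 and of Wnt target genes. Tregs are CD4 T cells that hold back other lymphocytes and depend on the transcription factor FOXP3. Resting Tregs recirculate through lymphoid organs and share the genes of naive T cells, such as Ccr7, Tcf7 and Klf2. Activated or effector Tregs lose those genes and gain co-stimulatory receptors and the transcription factors BATF and BLIMP1.

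Several features of the libraries bear on what follows. The depth was estimated from the TPM steps of short RNAs as 13200487 and 9245278 reads in the Chd8-/- libraries and 9345789 and 10396255 reads in the WT libraries, so that a single read on a transcript of a kilobase is worth between 0.148 and 0.205 TPM. The intervals that such depths give cover counting error only. The Treg markers summed to 4006 and 3342 TPM in the Chd8-/- libraries and to 3583 and 3692 TPM in the WT libraries, and Foxp3 stood at 232.1 and 205.3 TPM against 202.8 and 215.4 TPM. Xist was detected in every library, at 500.2 TPM or more, and Ddx3y, Eif2s3y, Kdm5d and Uty were at 0 in every library, whereas the study describes 1 male and 1 female mouse of each genotype. Chd8-/- replicate 2 stood apart. Its 8 myeloid markers summed to 1593 TPM against 25.7 TPM in Chd8-/- replicate 1 and 168 and 183 TPM in the WT libraries, and its 5 erythroid markers summed to 1630 TPM against 8.7, 325 and 311 TPM. A list of 12 red pulp macrophage genes, written after the values were seen and sharing Adgre1 with the myeloid list, summed to 26.6 and 1017 TPM in the Chd8-/- libraries and to 667 and 634 TPM in the WT libraries, with 5 of the 12 at 0 in Chd8-/- replicate 1. Across the genes tested (genes do not count as replicates of a library), Chd8-/- replicate 1 correlated on the log2 scale with r = 0.882 and 0.889 with the WT libraries and with r = 0.857 with Chd8-/- replicate 2. The WT libraries correlated with r = 0.937.

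**Figure D1:**
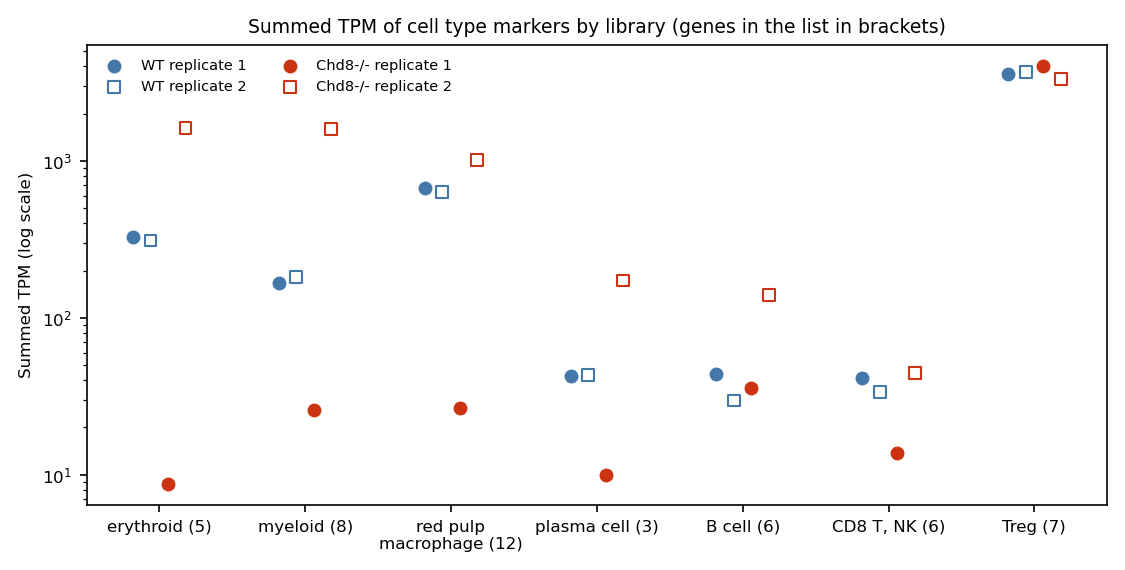
Summed TPM (y axis, log scale) of marker genes of 7 cell types (x axis) in each library; circles are replicate 1, squares replicate 2, blue WT and red Chd8-/-. Chd8-/- replicate 1 holds the lowest sums for erythroid, myeloid, macrophage, plasma cell, and CD8 T and NK cell markers, and Chd8-/- replicate 2 the highest, while the Treg sums lie between 3342 and 4006 TPM.

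Genes were called separated when the lower library of a genotype lay above the higher library of the other, and the distance between those 2 libraries on the log2(TPM + 1) scale is called the gap. By this rule 1783 genes, 16.4% of those tested, were higher in both Chd8-/- libraries and 3263 genes, 29.9%, were lower. The gap was at least 1 for 163 genes that were higher (1.49%) and for 285 genes that were lower (2.61%). The median log2 difference (Chd8-/- minus WT) of all genes was -0.14, and the levels described here are to be read relative to that shift. When the libraries were scaled by a trimmed mean, which brought the median to -0.01, 2561 genes (23.5%) were higher and 2608 (23.9%) were lower. All 163 of the higher genes with a gap of at least 1 and all 285 of the lower genes stayed separated in the same direction under that scaling, under which the gap was at least 1 for 1.79% and 2.2% of genes. Quantile normalization gave 2460 higher (22.6%) and 2535 lower genes (23.2%), and a gap of at least 1 for 253 (2.32%) and 189 (1.73%). The separated genes were then nearly even in number under both scalings, with lower genes still the more numerous, and at a gap of at least 1 the lower genes stayed the more numerous under trimmed mean scaling and became the fewer under quantile normalization. In limma (two-sided, Benjamini-Hochberg adjustment over the 10904 genes) 2 genes, or 0.0183%, passed an adjusted p of 0.05, both of them higher. At an unadjusted p under 0.05 there were 496 higher and 800 lower genes. With 2 libraries per genotype the smallest p of an exact permutation test is 0.33.

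Chd8 itself stood at 14.9 and 11.4 TPM in the Chd8-/- libraries and at 24.7 and 27.6 TPM in the WT libraries, with 559 to 935 estimated reads in the Chd8-/- libraries. The groups did not overlap. The level was 1.99-fold lower in the Chd8-/- libraries, with a log2 difference of -0.95 ± 0.29 (SE, n = 2 per genotype) and a limma adjusted p of 0.369. The values are for the whole gene, and the exons that Cre removes cannot be told apart from the rest in them.

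The genes that passed the limma test were Cdkn1a and Mir7649. Cdkn1a, the cell cycle inhibitor p21 and a target of p53, stood at 190.7 and 150.1 TPM against 0.2 and 0.3 TPM, or 2620 and 1613 estimated reads against 2 and 3 (log2 difference 7.09 ± 0.30, limma adjusted p = 0.0391). Mir7649 stood at 161.5 and 145.5 TPM against 0 in both WT libraries (log2 difference 7.27 ± 0.28, limma adjusted p = 0.0391), which with a floor of 3 reads per library made it at least 13-fold higher. These TPM rest on 61 and 43 reads over 56 bases. Mir7649 lies on chromosome 6 (GRCm38.p6, 128974840 to 128974895, minus strand) inside the model Gm15987 (128952353 to 128975029, minus strand), and both lie within Clec2g (128934381 to 128984707, plus strand), a gene of the C-type lectin family. Gm15987 stood at 75.6 and 97.4 TPM against 2.8 and 0.5 TPM, with 552 and 556 reads against 15 and 3. Clec2g stood at 6.0 and 9.3 TPM against 1.5 and 0.7 TPM. All 3 entries were therefore higher in both Chd8-/- libraries, and the reads of entries that share bases cannot be assigned to a single one of them here, since the strand setting of the counting is not given in the sources used here.

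Next, the genes with the widest gaps in each direction were named by rule, 30 that were higher and 30 that were lower, after leaving out genes named in the study's text, models with Gm or Rik names and small RNAs under 1 TPM in the other genotype, while models with LOC names stayed in. The higher genes had gaps from 1.87 to 4.22 and included 17 protein-coding genes and 8 small RNAs. The lower genes had gaps from 2.00 to 4.21 and included 13 protein-coding genes and 8 small RNAs. None of these 60 passed the limma test, with adjusted p from 0.231 to 0.406 among the higher genes and from 0.231 to 0.347 among the lower genes.

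**Figure D2:**
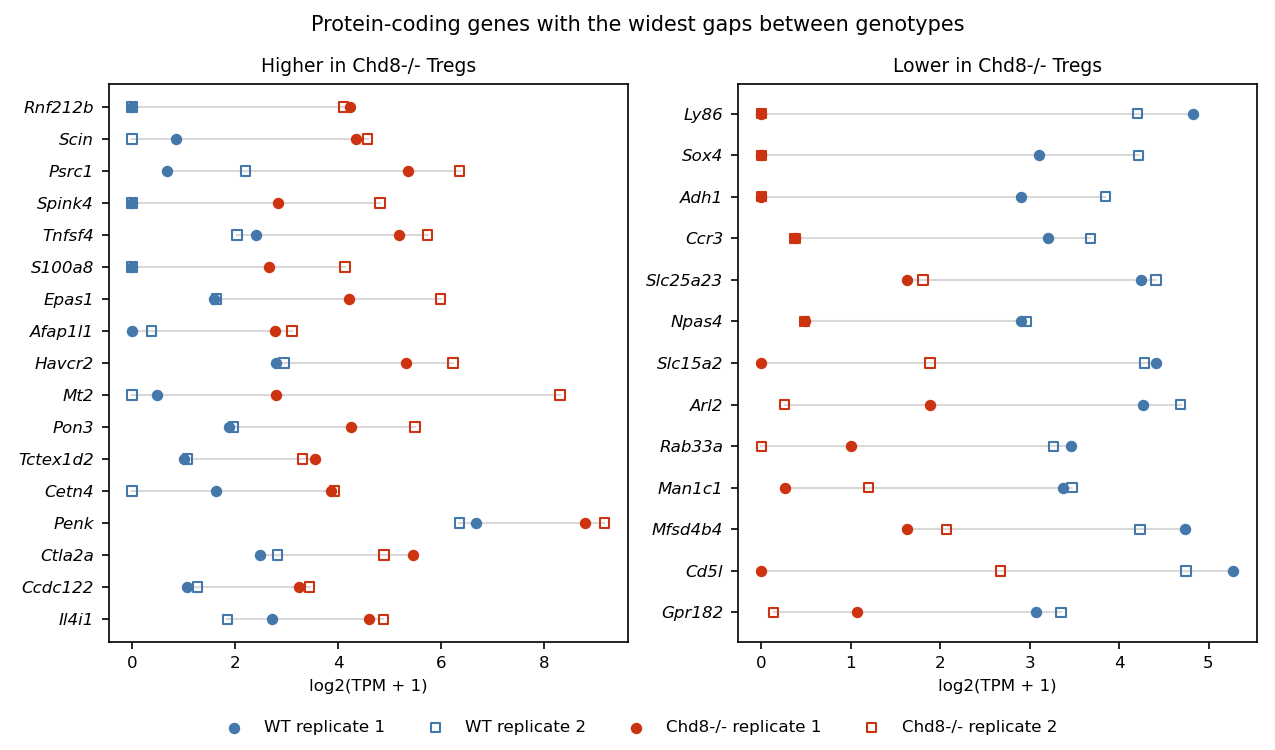
The protein-coding genes among the widest gaps (17 higher, 13 lower), with log2(TPM + 1) on the x axis and each of the 4 libraries as a point (circles replicate 1, squares replicate 2, blue WT, red Chd8-/-; the grey line spans the range). In every row the red points lie on one side of the blue points; Mt2 shows the widest spread within a genotype, at 5.9 and 315.1 TPM.

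Among the higher genes were those of surface and secreted molecules. Tnfsf4 encodes OX40 ligand, the partner of the co-stimulatory receptor OX40, and stood at 35.1 and 52.1 TPM in the Chd8-/- libraries against 4.3 and 3.1 TPM in the WT libraries, an 11.8-fold difference (log2 difference 3.23 ± 0.35). Havcr2, the inhibitory receptor TIM-3, stood at 38.7 and 73.8 TPM against 5.9 and 6.7 TPM, 8.93-fold higher. The groups did not overlap for either gene. Penk, the precursor of the opioid peptide enkephalin, was the most abundant of the named genes at 442.5 and 571.9 TPM against 100.8 and 80.5 TPM (log2 difference 2.47 ± 0.23), and its 4757 and 4807 reads against 783 and 663 make the counting error small beside the spread between libraries. Il4i1, a secreted oxidase of aromatic amino acids, stood at 23.1 and 28.4 TPM against 5.6 and 2.6 TPM. Spink4, a secreted protease inhibitor of the Kazal type, stood at 6.1 and 27.1 TPM against 0 in both WT libraries, at least 3.9-fold higher. Its Chd8-/- libraries differed more from each other than those of Tnfsf4 or Penk did.

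Other higher genes were of varied kinds. Rnf212b, a RING finger gene known from meiotic recombination, stood at 17.8 and 16.2 TPM, or 207 and 148 reads, against 0 in both WT libraries, which made it at least 45-fold higher. It lies on chromosome 14 (GRCm38.p6, 54783341 to 54854110), as does the targeted Chd8 (52198151 to 52258042). The part of that position in the value of Rnf212b was not tested. Scin, the actin-severing protein scinderin, stood at 19.2 and 22.8 TPM against 0.8 and 0 TPM. Psrc1, a microtubule protein of the spindle and a gene induced by p53, stood at 39.8 and 81.1 TPM against 0.6 and 3.6 TPM, a 28.8-fold difference. Each of these genes was at or near 0 in a WT library. Epas1, the hypoxia-inducible factor HIF-2alpha, stood at 17.4 and 62.5 TPM against 2.0 and 2.1 TPM. Pon3, a lactonase of the paraoxonase family, stood at 18.1 and 43.9 TPM against 2.7 and 2.9 TPM. In Epas1 and Pon3 the WT libraries were nearly level and Chd8-/- replicate 2 was above replicate 1. Ctla2a, an inhibitor of cathepsin L-like proteases, stood at 42.8 and 28.6 TPM against 4.6 and 6.1 TPM. Erdr1, classed by RefSeq as a transcribed pseudogene, stood at 62.9 and 96.9 TPM against 12.3 and 7.9 TPM. Centrin genes appeared with Cetn4 at 13.6 and 14.2 TPM against 2.1 and 0 TPM, and the related Cetn2, outside the named 30 and singled out after its values were seen, stood at 174.8 and 136.9 TPM against 64.7 and 46.0 TPM.

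For Mt2 and S100a8 the value was higher in Chd8-/- replicate 2, the library with the highest myeloid marker sum, than in replicate 1. The same held for Spink4, Epas1 and Pon3 above, among others. Mt2, a metallothionein that binds zinc and copper, stood at 5.9 and 315.1 TPM against 0.4 and 0 TPM, and the log2 difference was 5.30 ± 1.88 with both Chd8-/- libraries and 2.54 without replicate 2. S100a8, a calcium-binding protein of neutrophils and monocytes, stood at 5.3 and 16.5 TPM against 0 in both WT libraries, with 14 and 34 reads. The myeloid markers, of which S100a8 is a member, summed to 25.7 and 1593 TPM in the same libraries and to 168 and 183 TPM in the WT libraries. Their part in these results was not tested.

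Turning to the genes that were lower, the widest gaps among the 13 protein-coding genes named were in genes at 0 in both Chd8-/- libraries. In these bulk samples fewer cells of a type and less RNA per cell cannot be told apart. Sox4, a transcription factor of the SOX family that acts downstream of TGF-beta in T cells, was at 0 in both Chd8-/- libraries and at 7.6 and 17.6 TPM in the WT libraries, with 177 and 435 reads, so that it was at least 64-fold lower with a floor of 3 reads per library (log2 difference -3.66 ± 0.51). Ly86, which encodes MD-1, the partner of the B cell and myeloid receptor RP105, was at 0 in both Chd8-/- libraries and at 27.4 and 17.5 TPM in the WT libraries, at least 31-fold lower. Adh1, an alcohol dehydrogenase that also oxidises retinol, was at 0 against 6.5 and 13.4 TPM, at least 16-fold lower. Ly86 is known from cells other than T cells. The myeloid markers summed to 25.7 and 1593 TPM in the Chd8-/- libraries and to 168 and 183 TPM in the WT libraries. The B cell markers summed to 35.5 and 139.8 TPM against 43.9 and 29.7 TPM. The part of such cells in the values of Ly86 was not tested.

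Npas4, Ccr3 and Slc25a23 were low at nearly the same level in both Chd8-/- libraries. Ccr3, the receptor of eotaxins, stood at 0.3 and 0.3 TPM against 8.2 and 11.8 TPM, a 33.3-fold difference with 137 and 209 reads in the WT libraries. Npas4, a transcription factor known as an activity-dependent gene of neurons, stood at 0.4 and 0.4 TPM against 6.5 and 6.8 TPM. Slc25a23, a calcium-regulated mitochondrial carrier of ATP and phosphate, stood at 2.1 and 2.5 TPM against 17.9 and 20.3 TPM (log2 difference -2.61 ± 0.31). In these genes the libraries of a genotype lay far closer to each other than to those of the other. Slc15a2, a peptide transporter, stood at 0 and 2.7 TPM against 20.3 and 18.5 TPM. Arl2, a small GTPase with a role in tubulin folding, stood at 2.7 and 0.2 TPM against 18.2 and 24.8 TPM. Rab33a, a GTPase of vesicle traffic, stood at 1.0 and 0 TPM against 10.0 and 8.6 TPM. Man1c1, a mannosidase that trims N-glycans in the Golgi, stood at 0.2 and 1.3 TPM against 9.4 and 10.1 TPM.

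Cd5l was also among the lower genes, and it is a product of macrophages. It stood at 0 and 5.4 TPM in the Chd8-/- libraries against 37.8 and 25.9 TPM in the WT libraries. Other genes of the macrophage list did not all follow. Hmox1 was lower in both Chd8-/- libraries, at 9.4 and 126.7 TPM against 191.3 and 189.4 TPM. Vcam1 overlapped between genotypes, at 4.9 and 162.6 TPM against 100.2 and 107.7 TPM. Of the 11 genes of that list that passed the filter, 5 were separated and all 5 were lower (45.5% against 29.9% of all genes), and 9 of the 11 had passed only through the WT libraries. The list sum was above the WT sums in Chd8-/- replicate 2 and below them in replicate 1.

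Further genes with a gap of at least 1 lay outside the named sets and were singled out after their values were seen. On the higher side, Lilrb4a, an inhibitory receptor with immunoglobulin domains, stood at 33.5 and 44.9 TPM in the Chd8-/- libraries against 9.2 and 8.6 TPM in the WT libraries. Pros1, the anticoagulant protein S and a ligand of TAM receptors, stood at 38 and 40.6 TPM against 11.3 and 7.6 TPM. Fabp5, a fatty acid-binding protein, stood at 62.7 and 90.4 TPM against 20.3 and 7.3 TPM. The Chd8-/- libraries were level for Pros1 and spread more for Fabp5. Il1r2, the decoy receptor of interleukin 1, stood at 26.2 and 19.7 TPM against 8.1 and 9.1 TPM, and it overlaps the model Gm16894 on the opposite strand. Naip6, a paralogue within a family of NLR sensors of bacterial protein, stood at 123 and 104.1 TPM against 43.1 and 43.7 TPM, and reads shared within that family make its value uncertain.

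On the lower side, Gpr182, an atypical chemokine receptor known from endothelium, was among the named genes at 1.1 and 0.1 TPM against 7.4 and 9.2 TPM. Selp, the adhesion molecule P-selectin of platelets and endothelium, stood at 1.7 and 1 TPM against 7.6 and 10.6 TPM. The platelet markers summed to 1.5 and 0 TPM in the Chd8-/- libraries and to 10.9 and 1.2 TPM in the WT libraries, and their part in the value of Selp was not tested. Tgfbr3, the TGF-beta co-receptor betaglycan, stood at 5.6 and 4.8 TPM against 23.1 and 14.8 TPM. Vipr1, a receptor of vasoactive intestinal peptide, stood at 1.4 and 0.8 TPM against 6.9 and 6.1 TPM. Tlr7, the endosomal receptor of single-stranded RNA, stood at 3.5 and 3 TPM against 10.7 and 12.2 TPM. Cd86, a co-stimulatory ligand, stood at 10.5 and 12.1 TPM against 29.8 and 27.6 TPM, the direction opposite to that of Cd80. The genotypes did not overlap in any of these genes.

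The genes of resting T cells were then set beside those of effector Tregs. Of 33 resting T cell genes that passed the filter, 25 were lower in both Chd8-/- libraries and 2 were higher, or 75.8% and 6.06%, against 29.9% and 16.4% of all genes. Their median log2 difference was -0.86 against -0.14 for all genes, and it was -0.77 without Chd8-/- replicate 2, -1.05 without replicate 1 and -0.72 after trimmed mean scaling. Of the 33 genes, 5 had passed the filter only through the WT libraries. The gene lists were chosen with earlier results of these data known, so their counts are a description. Id3, an inhibitor of E proteins, stood at 51.4 and 16.9 TPM against 193.8 and 151.9 TPM. Foxp1, a forkhead factor of T cell quiescence, stood at 5.4 and 5.3 TPM against 13.9 and 13.3 TPM (log2 difference -1.20 ± 0.29, limma adjusted p = 0.33). Bach2, a repressor of effector genes, stood at 7.0 and 8.1 TPM against 19.2 and 24.6 TPM (log2 difference -1.41 ± 0.30). The levels of Foxp1 were almost equal within each genotype. S1pr1, the receptor for egress from lymphoid organs, stood at 225.9 and 177.7 TPM against 356.3 and 401.4 TPM. Klf2, which drives S1pr1, stood at 90.0 and 98.2 TPM against 158.8 and 164.5 TPM. Tcf7 stood at 208.5 and 197.1 TPM against 324.4 and 323.8 TPM. The exception with a gap above 1 was Il7r, the receptor of interleukin 7, which was higher at 504.5 and 366.8 TPM against 149.7 and 126.7 TPM.

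Of 37 effector Treg genes that passed the filter, 21 were higher in both Chd8-/- libraries and 5 were lower, or 56.8% and 13.5% against 16.4% and 29.9% of all genes, and the median log2 difference was 0.46 against -0.14. The median was 0.33 without Chd8-/- replicate 2 and 0.59 without replicate 1. Of the 37 genes, 2 had passed the filter only through the Chd8-/- libraries and 3 only through the WT libraries. Batf, a factor of effector Treg differentiation, stood at 502.4 and 784.6 TPM against 231.1 and 207.1 TPM (log2 difference 1.52 ± 0.27). Ebi3, a subunit of the cytokines IL-27 and IL-35, stood at 143.6 and 172.3 TPM against 29.3 and 46.8 TPM. Icos, a co-stimulatory receptor, stood at 254.0 and 212.5 TPM against 110.0 and 110.3 TPM. By flow cytometry the study found ICOS raised on Tregs of its inflamed Chd8-/- mice. It did not find ICOS raised on CHD8-deficient YFP+ Tregs beside YFP- Tregs in healthy heterozygous females. Prdm1, which encodes BLIMP1, stood at 11.4 and 17.6 TPM against 5.3 and 6.6 TPM. The genotypes did not overlap in any of these genes. Against the direction of the list, Gzmb, the protease granzyme B, stood at 11.7 and 3.1 TPM against 35.6 and 27.6 TPM, Tbx21 at 2.7 and 1.9 TPM against 12.9 and 5.0 TPM, and Klrg1 at 42.4 and 53.5 TPM against 101.5 and 82.0 TPM.

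Of 17 genes of a Treg list, 10 were higher and 1 was lower, or 58.8% and 5.88% against 16.4% and 29.9% of all genes, with a median log2 difference of 0.31. Of the 7 Treg markers summed above, 2 were higher and 2 were lower, or 28.6% each, with a median of 0.06. Itgae, the integrin CD103, stood at 120.4 and 99.2 TPM against 23 and 26.8 TPM (log2 difference 2.09 ± 0.24), and Tnfrsf4, the receptor OX40, at 474.4 and 473.4 TPM against 284.0 and 253.4 TPM. Foxp3, Il2ra and Ikzf2 overlapped between genotypes, with log2 differences of 0.06 ± 0.18, 0.14 ± 0.20 and -0.07 ± 0.26. Among 18 cytokine and ligand genes, 4 were higher and 5 were lower, and these shares of 22.2% and 27.8% were near the 16.4% and 29.9% of all genes. Csf1, the growth factor of macrophages, stood at 51.4 and 74.7 TPM against 12 and 16.3 TPM, and Tnfsf8, the ligand of CD30, at 291.9 and 225.9 TPM against 79.5 and 72.9 TPM. The CD30 receptor gene Tnfrsf8 stood at 30.7 and 75.8 TPM against 7.9 and 20.8 TPM, so both ligand and receptor were higher in each Chd8-/- library. Tnf went the other way, at 35.1 and 16.7 TPM against 66.7 and 50 TPM.

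**Figure D3:**
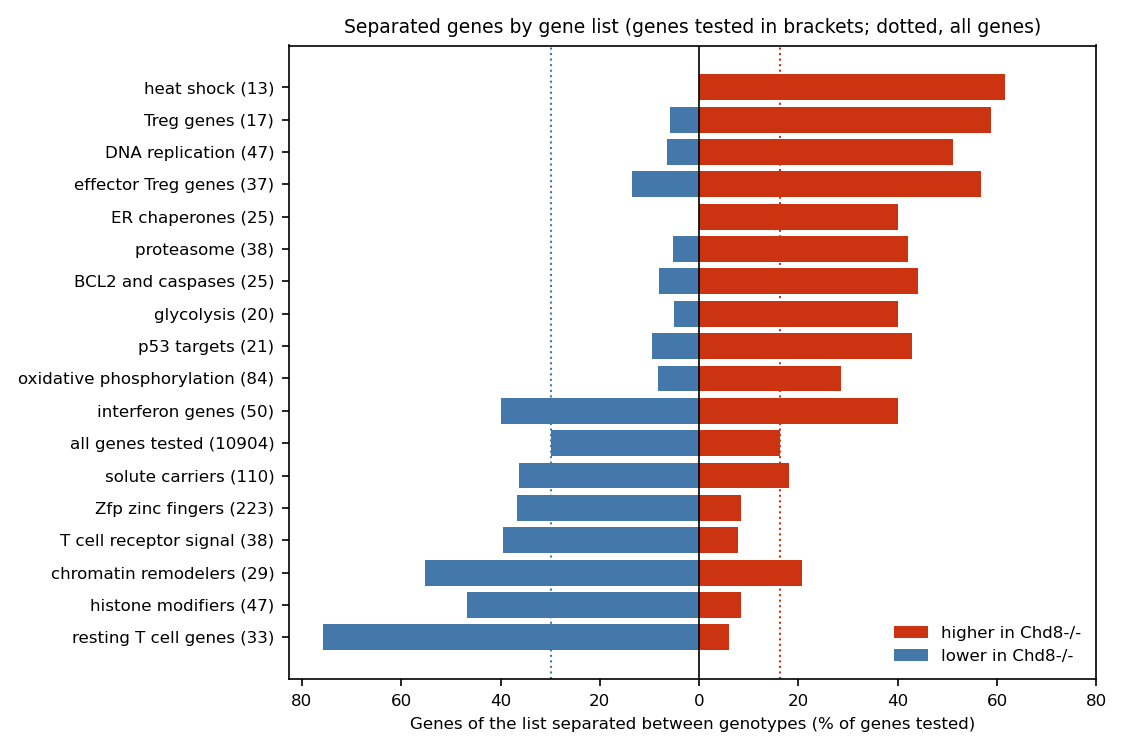
Percent of the tested genes of each list (number in brackets) that were separated, to the right higher and to the left lower in both Chd8-/- libraries; dotted lines mark all genes, at 16.4% and 29.9%. Among the lists shown, resting T cell genes lie furthest to the left with 75.8% lower, and heat shock, Treg, effector Treg and DNA replication genes lie furthest to the right. The lists of interferon-inducible GTPase and antiviral genes are not shown here.

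The interferon-inducible genes differed in direction between lists written after the values were seen. All 4 libraries carry the treatment label Poly IC injection, and its part in the levels of these genes was not tested. Type I interferon acts through the factor complex ISGF3, which binds the interferon-stimulated response element (ISRE), and interferon gamma acts on the gamma-activated site (GAS). Of 50 interferon genes that passed the filter, 20 were higher and 20 were lower, or 40.0% each against 16.4% and 29.9% of all genes, and their median log2 difference was -0.03. Among 15 guanylate-binding proteins and immunity-related GTPases, which attack the vacuoles of intracellular pathogens, 10 were higher (66.7% against 16.4% of all genes), 1 was lower (6.67% against 29.9%) and 4 overlapped, with a median of 0.54. Among 18 antiviral genes, of the IFIT and OAS families and others, 0 were higher and 16 were lower (88.9% against 29.9% of all genes), with a median of -0.89. The others include Irf7, Irf9, Stat2 and Bst2, and 3 of the 18 genes had passed the filter only through the WT libraries. Both of these lists were written after the values were seen, so the counts describe these libraries and test nothing. The medians were 0.67 and -0.76 after trimmed mean scaling, and 0.49 and -0.78 without Chd8-/- replicate 2.

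The 250 bases before the start of genes from both lists are printed here (RefSeq, GRCm38.p6, transcribed strand, 5′ to 3′). The lists differ in direction and were written after the values were seen. The genes printed are, on each list, the members with the widest gaps that hold a match, without Ifit3, whose promoter is a near copy of that of Ifit3b. Capitals mark matches to the ISRE letters (GAAA, any 2 bases, GAAA) or the GAS letters (TTCNNNGAA, where N is any base) on either strand, and no ISRE and GAS matches overlap in them. Gbp2 lies at chr3:142620413-142620662, plus strand; Gbp7 at chr3:142530086-142530335, plus strand; Igtp at chr11:58199306-58199555, plus strand; Ifit3b at chr19:34607707-34607956, plus strand; and Rsad2 at chr12:26456453-26456702, minus strand.
Gbp2: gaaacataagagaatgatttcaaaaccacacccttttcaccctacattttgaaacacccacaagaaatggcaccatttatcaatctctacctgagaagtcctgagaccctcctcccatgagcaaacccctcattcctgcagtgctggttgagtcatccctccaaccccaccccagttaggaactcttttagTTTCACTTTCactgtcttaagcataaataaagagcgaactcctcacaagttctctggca
Gbp7: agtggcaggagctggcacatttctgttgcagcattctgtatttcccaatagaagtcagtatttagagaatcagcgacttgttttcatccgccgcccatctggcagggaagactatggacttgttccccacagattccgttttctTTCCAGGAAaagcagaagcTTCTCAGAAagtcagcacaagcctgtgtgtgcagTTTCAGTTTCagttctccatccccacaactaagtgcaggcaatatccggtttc
Igtp: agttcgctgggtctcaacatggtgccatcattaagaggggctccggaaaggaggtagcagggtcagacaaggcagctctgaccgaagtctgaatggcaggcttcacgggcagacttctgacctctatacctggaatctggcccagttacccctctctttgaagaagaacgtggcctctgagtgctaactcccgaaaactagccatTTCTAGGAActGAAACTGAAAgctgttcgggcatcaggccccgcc
Ifit3b: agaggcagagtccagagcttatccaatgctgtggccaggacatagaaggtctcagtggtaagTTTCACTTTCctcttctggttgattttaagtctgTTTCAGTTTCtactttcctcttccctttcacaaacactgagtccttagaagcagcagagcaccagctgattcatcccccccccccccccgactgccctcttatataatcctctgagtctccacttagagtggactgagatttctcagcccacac
Rsad2: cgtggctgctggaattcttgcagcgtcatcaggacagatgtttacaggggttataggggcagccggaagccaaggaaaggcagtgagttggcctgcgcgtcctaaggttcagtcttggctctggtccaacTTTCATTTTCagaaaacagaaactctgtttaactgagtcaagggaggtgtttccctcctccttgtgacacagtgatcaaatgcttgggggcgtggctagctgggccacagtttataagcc

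Promoters of both directions held the ISRE letters. Gbp7 and Igtp also held the GAS letters and Gbp2 did not. Of the GTPase genes, 9 of 15 had a promoter sequence, and all 9 held an ISRE match and 6 held a GAS match. Of the antiviral genes, 14 of 18 had a sequence, and 9 held an ISRE match and 3 held a GAS match. Over the 7568 tested genes with a promoter sequence, 3.48% held an ISRE match and 7.20% held a GAS match in the same 250 bases. A match is a description of letters in these windows.

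The levels behind those sequences are as follows. Gbp2 stood at 266.9 and 314.7 TPM in the Chd8-/- libraries against 125.3 and 120.8 TPM in the WT libraries (log2 difference 1.23 ± 0.19, limma adjusted p = 0.235). Gbp7 stood at 199.9 and 187.1 TPM against 108.5 and 122.3 TPM. Igtp stood at 813.9 and 675.6 TPM against 454.1 and 423.2 TPM, the highest level on that list, with a log2 difference of 0.76 ± 0.17. In these GTPases both Chd8-/- libraries were above both WT libraries. Ifit3b stood at 2.7 and 2.6 TPM against 9.0 and 9.6 TPM, and its paralogue Ifit3 at 7.8 and 7.7 TPM against 17.5 and 18.2 TPM. The paralogues are alike in sequence, and how the counting divided shared reads between them is not given in the sources used here. Rsad2, the antiviral enzyme viperin, stood at 8.3 and 2.5 TPM against 31.7 and 19.7 TPM (log2 difference -2.19 ± 0.59, limma adjusted p = 0.347). Oas2, an oligoadenylate synthetase, stood at 3.0 and 3.9 TPM against 10.1 and 12.3 TPM. Bst2, the virion-retaining protein tetherin, stood at 79.4 and 47.9 TPM against 183.1 and 153.0 TPM. Irf9, the DNA-binding part of ISGF3, stood at 60.9 and 46.7 TPM against 81.8 and 83.5 TPM, and Irf7, the inducible amplifier of type I interferon, at 8.9 and 16.9 TPM against 32.4 and 25.5 TPM. Stat2 overlapped between genotypes, at 28.9 and 37.3 TPM against 34.5 and 40.4 TPM.

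**Figure D4:**
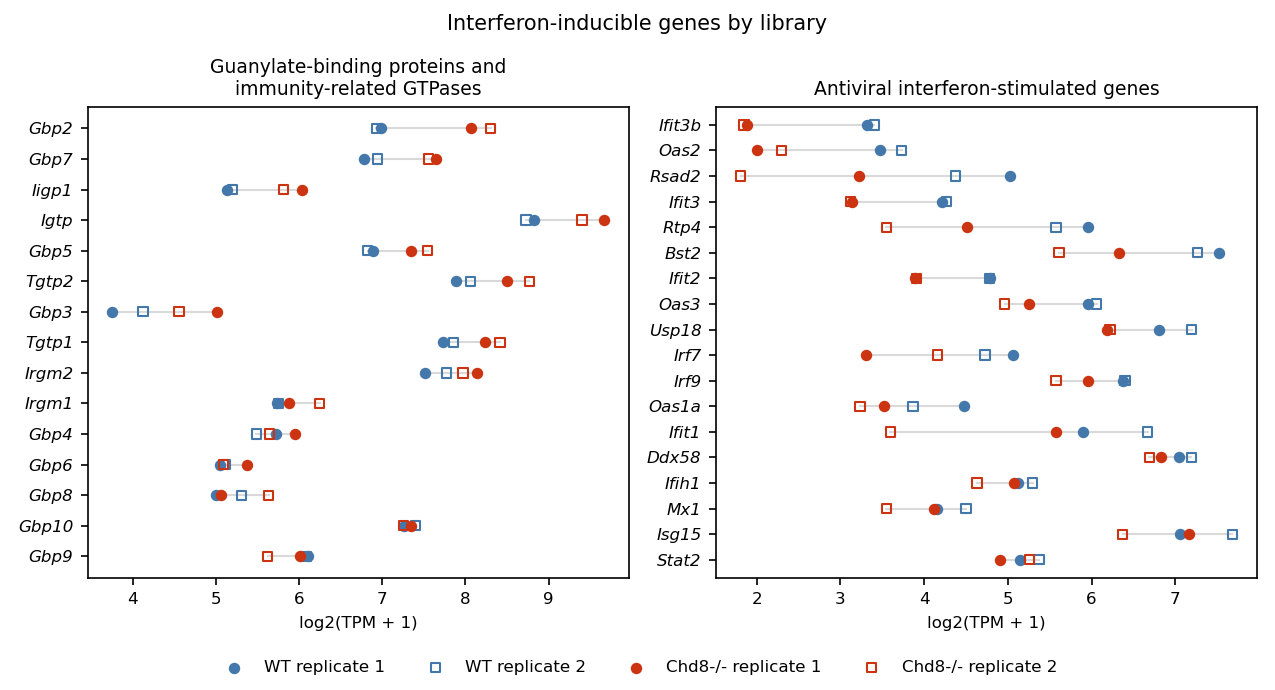
Log2(TPM + 1) of 15 interferon-inducible GTPase genes (left) and 18 antiviral genes (right) in each library; circles are replicate 1, squares replicate 2, blue WT and red Chd8-/-. On the left 10 genes have both red points above both blue points, and on the right 16 genes have both red points below both blue points.

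Chaperone, proteasome and replication genes lay on the higher side with smaller gaps. Over all genes 16.4% were higher and 29.9% were lower. Of 13 heat shock genes 8 were higher (61.5%) and 0 were lower, with a median log2 difference of 0.33. Of 25 endoplasmic reticulum chaperone and stress genes 10 were higher (40.0%) and 0 were lower, with a median of 0.37. Ppib, a prolyl isomerase of the endoplasmic reticulum, stood at 503.1 and 505.9 TPM against 218.7 and 254.9 TPM (log2 difference 1.09 ± 0.17), and Calr, the chaperone calreticulin, at 666.1 and 725.1 TPM against 456.1 and 463.0 TPM. Hsp90aa1 stood at 704.3 and 684.5 TPM against 403.8 and 504.5 TPM. In Ppib the Chd8-/- libraries were almost level. Of 38 proteasome subunits 16 were higher and 2 were lower, or 42.1% and 5.26% against 16.4% and 29.9% of all genes, with a median of 0.27. Psmb2, a subunit of the catalytic core, stood at 263.4 and 271.5 TPM against 144.1 and 121.6 TPM, and Psmb9, an interferon-inducible subunit of the immunoproteasome, at 351.4 and 278.7 TPM against 194.4 and 189.6 TPM. Of 47 replication and nucleotide synthesis genes 24 were higher and 3 were lower, or 51.1% and 6.38% against 16.4% and 29.9% of all genes, with a median of 0.28. Mcm3, a subunit of the replicative helicase, stood at 153.8 and 167.5 TPM against 69.9 and 108.3 TPM, and Rrm1, of ribonucleotide reductase, at 103.7 and 104.5 TPM against 40.2 and 74.6 TPM. Of 40 genes of mitosis 6 were higher and 4 were lower, or 15.0% and 10.0% against 16.4% and 29.9% of all genes.

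The BCL2 family and caspase list and the p53 list held further members. Of 25 genes of the former 11 were higher and 2 were lower, or 44.0% and 8.0% against 16.4% and 29.9% of all genes. Bcl2a1d, a pro-survival member, stood at 210.4 and 163.5 TPM against 99.9 and 106.2 TPM. The Bcl2a1 genes are near copies and share reads. Of 21 p53 target genes 9 were higher and 2 were lower, or 42.9% and 9.52% against 16.4% and 29.9% of all genes, with medians of 0.27 with all libraries, 0.59 without Chd8-/- replicate 2 and 0.16 without replicate 1. Of the 21 genes, 3 had passed the filter only through the Chd8-/- libraries and 1 only through the WT libraries. Pmaip1, the pro-apoptotic NOXA, stood at 37.6 and 47.1 TPM against 19.7 and 23.3 TPM, and Zmat3, an RNA-binding target of p53, at 68.3 and 36.7 TPM against 24.4 and 17.8 TPM. Sesn2 stood at 43.9 and 21.3 TPM against 2.7 and 11.1 TPM, while its relative Sesn1 stood at 59.8 and 33.2 TPM against 159.0 and 166.2 TPM.

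Enzymes that act on chromatin were more often lower than higher in TPM. Of 47 histone and DNA modifiers 22 were lower and 4 were higher, or 46.8% and 8.51% against 29.9% and 16.4% of all genes, with a median log2 difference of -0.24, which became -0.11 after trimmed mean scaling and -0.05 after quantile normalization. Tet3, which oxidises methylcytosine, stood at 10.4 and 10.3 TPM against 21.6 and 21.9 TPM, and Kmt2d, a histone methyltransferase of enhancers, at 13.4 and 14.4 TPM against 22.1 and 23.1 TPM. Both genes were nearly level within each genotype. Of 29 chromatin remodelers other than Chd8, 16 were lower and 6 were higher, or 55.2% and 20.7% against 29.9% and 16.4% of all genes, and the median of -0.16 turned to 0.02 after quantile normalization. Chd6, a close relative of Chd8, stood at 7.9 and 6.9 TPM against 12.6 and 13.4 TPM, and Chd2 at 211.5 and 176.4 TPM against 279.3 and 287.2 TPM. Hells, a remodeler needed for DNA methylation, was higher at 22.6 and 21.1 TPM against 8.5 and 12.9 TPM.

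Among receptors of migration 7 of 28 were higher and 7 were lower, or 25.0% each against 16.4% and 29.9% of all genes. Ccr8, a chemokine receptor of effector Tregs, stood at 101.1 and 86.2 TPM against 26.8 and 49.4 TPM, and Gpr183, the receptor of oxysterols, at 220.2 and 231.0 TPM against 138.3 and 141.2 TPM. Cxcr5, the receptor for entry into follicles, was lower at 60.6 and 31.8 TPM against 88.8 and 102.1 TPM. Of 38 genes of T cell receptor signalling 15 were lower and 3 were higher, or 39.5% and 7.89% against 29.9% and 16.4% of all genes, and the median of -0.15 was that of all genes within 0.01. Of 20 glycolysis genes 8 were higher and 1 was lower, or 40.0% and 5.0% against 16.4% and 29.9% of all genes. Of 84 genes of oxidative phosphorylation 24 were higher and 7 were lower, or 28.6% and 8.33%. The median of the latter was 0.17 with all libraries, 0.37 without Chd8-/- replicate 2 and -0.06 without replicate 1. Over all genes these medians were -0.14, -0.02 and -0.23, so the list lay above all genes in each case.

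Several separated genes share their position with other separated entries. Within Foxp1 (chromosome 6, 98925342 to 99522746, minus strand, GRCm38.p6) the models Gm19665 and Gm38865 on the same strand and Gm32882 on the other strand were all lower. Gm38865 stood at 16.5 and 20.5 TPM in the Chd8-/- libraries against 83.7 and 112.3 TPM in the WT libraries, a log2 difference of -2.34 ± 0.28, and rested on 1562 and 1518 reads against 5730 and 8151. Gm19665 stood at 9.1 and 8.7 TPM against 35.4 and 42.7 TPM, with a log2 difference of -2.01 ± 0.27. The exons of Foxp1 differed by -1.20 ± 0.29, and a test of the difference between the gene and its models was not run. Within St6galnac3, a sialyltransferase gene at 9.7 and 19.9 TPM against 45.7 and 44.8 TPM, the models Gm33066, 1700012D16Rik and Gm32721 were also lower. Gm32721 stood at 10.7 and 6.8 TPM against 76.7 and 33.9 TPM. St8sia1, another sialyltransferase gene, at 2.4 and 1.7 TPM against 8.8 and 8.7 TPM, overlaps Gm7457 at 3.9 and 2.9 TPM against 23.6 and 22.8 TPM. Among the higher genes, Ebi3 overlaps Gm16712 on the opposite strand, at 101.6 and 116.8 TPM against 27.3 and 35.3 TPM. Cd80, a co-stimulatory ligand at 51.7 and 18.4 TPM against 7.7 and 7.6 TPM, overlaps Gm41453 on the opposite strand, at 74.2 and 62.4 TPM against 2.3 and 16.6 TPM. All 17 overlapping pairs among the genes with a gap of at least 1 had the same direction. Without strand, reads from such partners cannot be told apart.

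**Figure D5:**
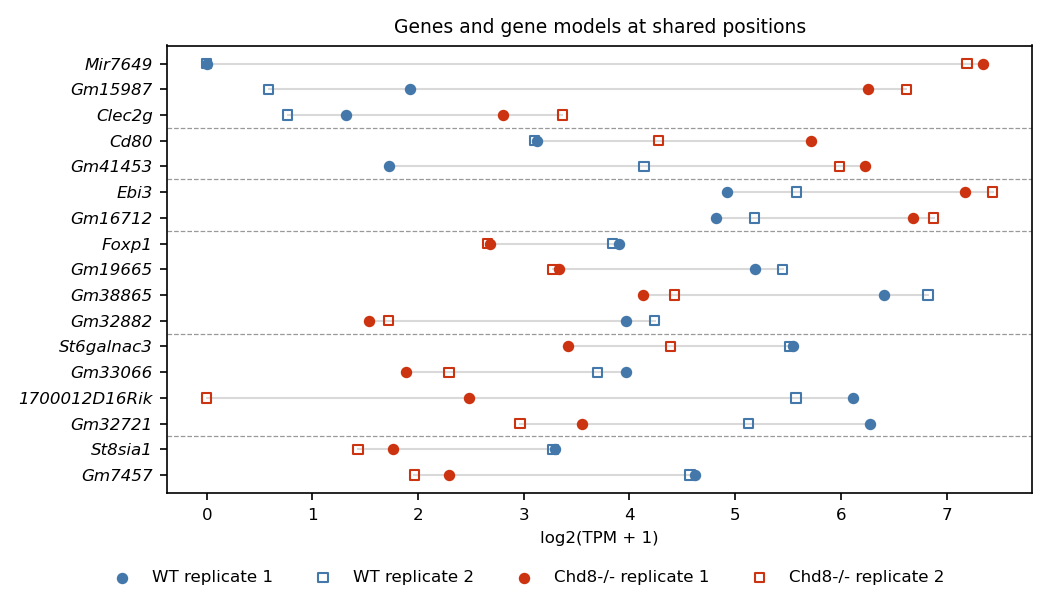
Log2(TPM + 1) in each library for genes and models that share a position, in groups divided by dashed lines (circles replicate 1, squares replicate 2, blue WT, red Chd8-/-). In each group every entry has its red points on the same side of its blue points, to the right at Clec2g, Cd80 and Ebi3 and to the left at Foxp1, St6galnac3 and St8sia1.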

How the data were processed

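RNA-seq of sorted splenic YFP+ Tregs of 2 WT and 2 Chd8-/- mice was analysed, with groups from the labels. According to the methods, reads were checked with FastQC 0.11.7, trimmed with Trim Galore 0.4.2 and cutadapt 1.9.1, aligned to mm10 with STAR 2.6.1e, stripped of duplicates and counted on RefSeq genes with featureCounts 1.6.2. The labels and methods name both an assay of 10X Genomics and an Illumina library kit, and the strand setting is not given in the sources used here. The authors deposited TPM, rounded to 0.1, which are scaled by gene length and library total. From 35869 rows, 4 under repeated names were left out.

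Reads were estimated from the TPM. TPM times exon length (union of RefSeq exons, GRCm38.p6, known for 91.8% of tested genes) falls on multiples of a fixed step in small RNAs under 160 bases. With that step 96.2% to 99.5% of the checked small RNAs gave whole reads within 0.1. Estimated reads of other genes depend on the exon length used.

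Levels were compared as log2(TPM + 1), so that differences of low genes are understated, by a two-sided test in limma 3.58.1 (R 4.3.3) with moderated variances that follow a trend in mean level, and p-values were adjusted by Benjamini-Hochberg over all genes tested. Errors are limma SE. Folds are ratios of mean TPM. Genes at 0 in both libraries of a genotype were given a bound at 3 reads per library. The fit and the step search were tested on simulated data. Named were Chd8, genes past an adjusted p of 0.05, the 30 widest gaps in each direction (leaving out genes of the study's text, Gm and Rik models and small RNAs under 1 TPM in the other genotype), separated list members, widest gaps first, and markers of other cells, Xist and Y-linked genes. Other genes were named after their values were seen. The members and lists were chosen with earlier results of these data known.

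The replicate numbers did not pair the libraries by any label. The alternatives were pseudocounts of 0.1 and 5 TPM, 3 filters, quantile and trimmed mean scaling, no trend, a replicate block and each library left out. Added after the data were seen were limma-voom on estimated reads and a filter of 20 reads. Tables and figures were made with Python 3.11.15, numpy 2.4.6, pandas 2.3.3 and matplotlib 3.10.9. ATAC-seq and CHIP-seq tables were not used, because their positions are in mm39.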

Additional observations from a re-analysis of the deposited data

How the results depend on the processing

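The numbers of separated genes (1783 higher, 3263 lower) became 2864 and 5277 with no filter on low values. The numbers with a gap of at least 1 (163 higher, 285 lower) became 104 and 149 with a pseudocount of 5 TPM, 264 and 451 with a filter of at least 1 TPM in 2 or more libraries and also with no filter, and 253 and 189 with quantile normalization. The 2 genes past an adjusted p of 0.05 in limma became 0 with a pseudocount of 0.1 or 5 TPM (1206 and 1390 genes at an unadjusted p under 0.05), 0 with a filter of at least 1 TPM in 2 or more libraries (1555), 415 with no filter, and 0 in limma-voom on estimated reads (1309). The replicate block gave 0 genes (1144 at an unadjusted p under 0.05), and same-numbered libraries deviated together with r = 0.006. With 2 libraries per genotype that value cannot decide whether the libraries were paired. With each library left out in turn, 0 genes passed in limma (445 to 2912 at an unadjusted p under 0.05), where a lone library is assumed to vary like the other genotype. Separated genes then numbered 2529 to 3730 higher and 4241 to 5991 lower, and a gap of at least 1 was found for 281 to 485 higher and 487 to 1453 lower genes. The rule is met more easily with 1 library fewer. The highest count of lower genes with a gap of at least 1, 1453, came without Chd8-/- replicate 1, and it was 566 without Chd8-/- replicate 2. Over all alternatives 39 of these counts lay within 1.5 times of the reported ones and 32 did not. Some of the 39 were fixed in advance. Separation does not depend on the pseudocount, and neither separation nor the gap depends on the trend or the block. For the 63 named genes no log2 difference changed sign in any alternative, and 18 values of Mir7649 and Cdkn1a no longer passed the threshold. The constant sign tests little, because all of these genes were separated. For such genes another pseudocount or a library left out cannot reverse the sign, and the filters, trend and block leave the difference unchanged. Of the medians of gene lists under alternatives, 477 moved by less than the spread between replicates and 95 by more. The shares of CHD8 peaks and ATAC changes at promoters were planned and not run, since positions in mm39 could not be joined to GRCm38. Under about 20 reads a gene's gap rests on counting error as well as on the spread of libraries. Of the genes with a gap of at least 1, 75.0% had 20 estimated reads or more in both libraries of a genotype. The rest include genes without a known exon length, whose reads could not be estimated.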

Other observations

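Zinc finger genes named Zfp lay on the lower side. Of 223 that passed the filter 82 were lower in both Chd8-/- libraries and 19 were higher, or 36.8% and 8.52% against 29.9% and 16.4% of all genes, with a median log2 difference of -0.31. The median was -0.06 without Chd8-/- replicate 2, -0.54 without replicate 1 and -0.18 after trimmed mean scaling, and 47 of the 223 had passed only through the WT libraries. Zfp866 stood at 22.8 and 14 TPM in the Chd8-/- libraries against 67.5 and 67.4 TPM in the WT libraries, and Zfp784 at 12.6 and 4.1 TPM against 44.5 and 37.9 TPM. Of 110 solute carriers 40 were lower and 20 were higher, or 36.4% and 18.2%, and the median of -0.18 turned to 0.05 after quantile normalization. Of the 110, 25 had passed the filter only through the WT libraries and 5 only through the Chd8-/- libraries.

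Replication-dependent histone genes went with Chd8-/- replicate 2. Of 64 that passed the filter 13 were higher and 3 were lower, or 20.3% and 4.69% against 16.4% and 29.9% of all genes. The median log2 difference was 0.33 with all libraries, -0.14 without Chd8-/- replicate 2 and 0.85 without replicate 1. Hist1h2bg stood at 204.0 and 550.2 TPM against 97.0 and 74.3 TPM.

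The wide gaps were counted by RefSeq class. Of 345 miRNA genes 25 were higher and 27 were lower with a gap of at least 1, and of 1108 lncRNA genes 33 were higher and 98 were lower. These counts stand beside 79 and 107 of 8283 protein-coding genes, and beside 163 (1.49%) and 285 (2.61%) of all 10904 genes. The miRNA values rest on few reads, as with Mir421 at 12 and 16 reads against 0 and 2, and precursors cannot be told apart from their host transcripts here.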
